A study of Mus musculus with 12 samples.

Results

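The 10 genes described here are Arc, Homer1, Nptx2, Bdnf, Npas4, Klf4, Ier2, Sik1, Per1 and Gadd45b, which neurons are known to transcribe quickly after they fire. They were taken by gene symbol from the RNA-seq table, where they are 10 of 18208 genes. In the hnRNP H CLIP count table they were found by Ensembl gene identifier, which gave 195 of 147438 distinct positions. All 10 genes had an RNA value in every library and at least 1 CLIP position.

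The study compared methamphetamine with saline in mouse striatum, in RNA bound by the RNA-binding protein hnRNP H and in the RNA of the tissue as a whole. In CLIP-seq the protein is cross-linked to the RNA it touches and pulled down with an antibody (here from Bethyl), and the RNA fragments it holds are sequenced. The RNA-seq libraries came from a portion of the same tissue pools set aside before cross-linking. Every mouse used here was wild type on the C57BL/6J strain, born to heterozygous Hnrnph1 mutant males and C57BL/6J females, and aged between post-natal days 50 and 100. All mice received saline on days 1 and 2. On day 3 the saline group received saline again and the methamphetamine group received 2 mg/kg of the drug intraperitoneally, and whole striata were taken 30 minutes later. Each library is a pool of striata from 4 mice, 2 females and 2 males, with 3 pools per treatment and assay. Pools with the same replicate number in both treatments share only the number. Mice of other genotypes were not analysed here.

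Synaptic activity reaches the nucleus through calcium and cyclic AMP signalling, and the transcription factor CREB then switches on a first wave of genes that need no new protein. Some of these encode further transcription factors. Others, such as Arc, Homer1, Nptx2 and Bdnf, encode proteins that act at the synapse itself, and in the striatum psychostimulants acting through dopamine are a known trigger of the same programme. hnRNP H is known for binding runs of guanine in RNA, in introns and untranslated regions (UTRs) among other places, and for acting there on splicing and polyadenylation.

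The positions at which hnRNP H reads were listed as peaks in these genes are few, and the sequences below are shown because they are the positions the CLIP results turn on. Runs of 3 or more G are in capitals, all sequences are on the transcript strand, and they were read from GENCODE M21 transcripts on GRCm38 (mm10). The first is the coding position of Per1 in both deposited lists, chr11:69109218-69109317 on the plus strand. The next is the coding part of the Per1 position with the most reads of any position in the 10 genes, chr11:69101018-69101103, which is in neither list. The last is 30 bases of the Npas4 3′ UTR position in both lists, chr19:4984910-4984939 on the minus strand.
Per1 listed position: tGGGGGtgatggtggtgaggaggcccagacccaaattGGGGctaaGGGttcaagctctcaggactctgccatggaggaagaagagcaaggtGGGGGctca
Per1 most-read position: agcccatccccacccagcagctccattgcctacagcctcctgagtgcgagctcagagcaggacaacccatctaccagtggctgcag
Npas4 listed position: ctgaaggatttaGGGGGGaggtGGGaGGGt
The listed Per1 stretch holds 4 runs of 3 or more G, and the whole 100-base Npas4 position holds 5. The coding part of the most-read Per1 position holds 0. The Per1 position in the saline list alone is not printed, and its 44-base coding part, chr11:69102674-69102717, also holds 0. Sequences of intronic positions are not printed, since no genome was used here.

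The RNA-seq libraries held between 3935160 and 5091839 recovered reads, and the CLIP libraries between 423057 and 1635338 reads in peak positions. The RNA-seq libraries fell into 2 sets along a first principal component that held 65.6% of the variance of 7853 genes. Set A held saline 1, saline 3 and methamphetamine 2, and set B held saline 2, methamphetamine 1 and methamphetamine 3, so the sets cut across the treatments. The labels give no reason for them. Summed levels of 10 cortical excitatory neuron markers were 199 to 480 CPM (reads per 1e6 reads) over the set A libraries, against 505 to 934 CPM over those of set B. The 10 markers of striatal projection neurons summed to 7637 to 8865 CPM over set A libraries, against 5641 to 6422 CPM over set B libraries, so the labelled tissue was present in every library. Other marker sums separated the sets too. Astrocyte markers summed to 2057 to 2202 CPM over set A and 2774 to 3210 over set B. Microglia markers summed to 206 to 226 and 243 to 281, and endothelial markers to 56.5 to 76.6 and 85.8 to 127. Oligodendrocyte sums overlapped between the sets. Methamphetamine 2 also held 4964 CPM of 7 choroid plexus markers, against 63.7 to 226 in the other 5 libraries. The part of these other cells in the results below was not tested, and in tissue pools fewer cells of a type and less RNA per cell cannot be told apart.

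RNA levels of the 10 genes were not called different between methamphetamine and saline, which does not show that they were equal. The largest differences were in Bdnf and Arc. Neither passed the test: limma with Benjamini-Hochberg adjustment gave an adjusted p of 0.9998 for every one of the 10 genes. Across all 18208 genes limma called 0 (0.0%) at an adjusted p under 0.05, and 276 (1.52%) had an unadjusted p under 0.05. None of the 10 genes was among those 276, the smallest unadjusted limma p being 0.063. The mean was higher after methamphetamine for 8 of 10 genes, where 50.4% of all genes were higher, and the median difference was 0.070 log2 CPM, against 0.0020 over all genes. This count depended on which libraries were included. Without saline 2 it was 2 of 10 (Arc and Bdnf) with a median of -0.080, and without methamphetamine 2 it was 5 of 10. Gadd45b, counted among the 8, turned to -0.037 with quantile normalization. Scaled to library totals, 62.6% of all genes and 8 of 10 were higher. Marker lists also differed by mean, though limma called 0 of their genes. Of striatal projection neuron markers, 0 of 10 were higher by mean after methamphetamine (median -0.23 log2 CPM), against 9 of 10 cortical markers (median 0.60). Also higher by mean were 6 of 6 oligodendrocyte, 5 of 5 astrocyte, 5 of 5 microglia, 5 of 6 endothelial and 6 of 7 choroid plexus markers. These counts differed within sets A and B. Endothelial markers were higher in only 2 of 6 in each set, and choroid plexus markers in 7 of 7 and 3 of 7. Cortical markers were higher in 9 and 7 of 10, and striatal projection neuron markers in 0 and 2 of 10. Oligodendrocyte markers were higher in 5 and 6 of 6, and astrocyte and microglia markers each in 3 and 4 of 5. Their part in the differences of the 10 genes was not tested.

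**Figure D1:**
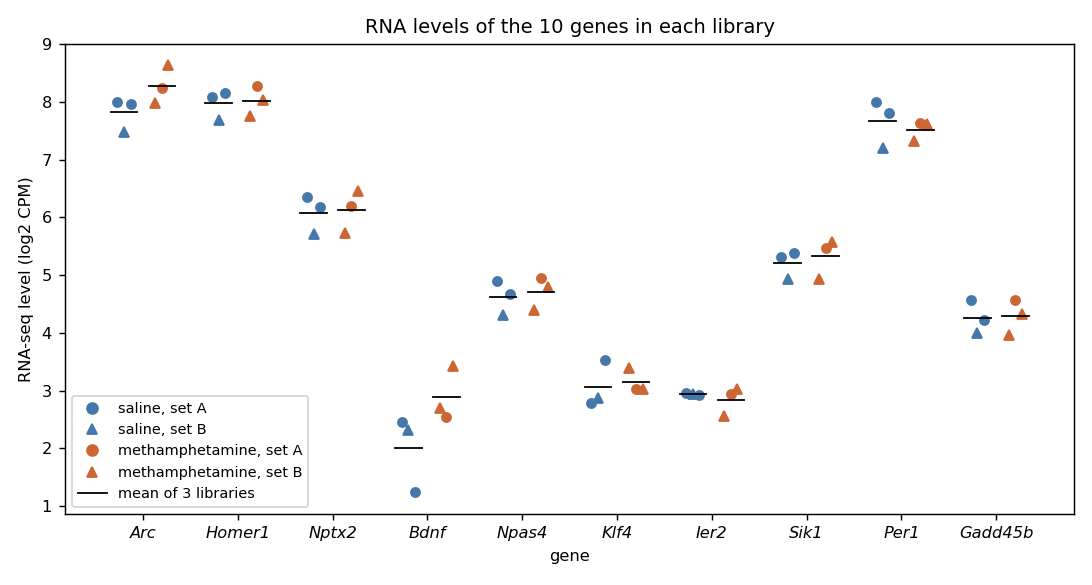
RNA-seq level (log2 CPM, vertical axis) of each gene in the 3 saline and 3 methamphetamine libraries, with circles for set A, triangles for set B and bars at the group means. Only Bdnf has all 3 methamphetamine libraries above all 3 saline libraries.

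Arc, a cytoskeleton-associated protein that drives the removal of AMPA receptors from synapses, was the most abundant of the 10 per length. Its log2 CPM was 8.01, 7.48 and 7.97 in saline pools 1 to 3 and 7.98, 8.24 and 8.64 in methamphetamine pools 1 to 3. The lowest value was a saline pool and the 2 highest were methamphetamine pools, but methamphetamine 1 lay within the saline range. The means were 7.82 ± 0.29 (SD, n = 3) and 8.29 ± 0.33 (SD, n = 3), a difference of 0.47 log2 CPM or 1.38-fold. Its 95% interval of -0.031 to 0.96 includes 0. Methamphetamine was higher in both library sets, by 0.25 in set A and 0.83 in set B. Each of these values compares a single library with 2 others: methamphetamine 2 in set A and saline 2 in set B. With the library set as a covariate the Arc difference was 0.54 (limma unadjusted p = 0.023, adjusted p = 0.999). The sets were drawn from these same RNA values, so the unadjusted p of that fit can be too small. Over all alternatives the smallest adjusted p of Arc was 0.772. Without methamphetamine 3 the Arc difference was 0.29, and without saline 2 it was 0.30.

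Bdnf encodes brain-derived neurotrophic factor, a secreted ligand of the TrkB receptor whose protein is known to reach the striatum largely along cortical axons. It was the least abundant member, with 19, 23 and 9 reads in saline pools 1 to 3, against 32, 25 and 55 in methamphetamine pools 1 to 3. Its log2 CPM was 2.45, 2.31 and 1.24 after saline and 2.70, 2.54 and 3.42 after methamphetamine. The groups did not overlap, which held for 6.01% of all genes in either direction, and Bdnf was the only member among them. The gap between methamphetamine 2 and saline 1 was small beside the spread within each group. Group means were 2.00 ± 0.67 (SD, n = 3) and 2.89 ± 0.47 (SD, n = 3), so that methamphetamine was 0.89 log2 CPM or 1.85-fold higher, with a 95% interval of -0.074 to 1.85. The difference was 0.70 within set A and 0.75 within set B, again with 1 library against 2 in each. Leaving out saline 3 brought it to 0.50.

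Counting error alone is wide at this depth. The 9 Bdnf reads of saline 3 correspond to 1.92 reads per 1e6 with a Wilson 95% interval of 1.01 to 3.65, and the 55 of methamphetamine 3 to 10.8 with an interval of 8.30 to 14.1. The summed level of the 10 cortical markers was 418, 613 and 199 CPM in saline 1 to 3 and 505, 480 and 934 CPM in methamphetamine 1 to 3, lowest and highest in the same libraries as Bdnf. Saline 2 departed from this, with the second highest cortical sum and the second lowest Bdnf. Methamphetamine 3 was also the highest library for Arc. All 10 markers had reads in every library, and their part in the Bdnf and Arc differences was not tested. A transcript of the opposite strand, Gm45346, overlaps Bdnf.

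Homer1 encodes a postsynaptic scaffold that ties group I metabotropic glutamate receptors to their calcium stores, and its short activity-induced form uncouples them. The deposited table holds a single RNA value for the gene, so the forms are not separated. That value was 8.08, 7.69 and 8.16 log2 CPM in saline pools 1 to 3, against 7.75, 8.28 and 8.03 in methamphetamine pools 1 to 3. The treatments overlapped throughout, whereas the 3 set A libraries all lay above the 3 set B libraries. Methamphetamine minus saline was 0.042 log2 CPM with a 95% interval of -0.41 to 0.49, while set A exceeded set B by 0.35. Overlapping gene models of the same strand, Gm47075 and Gm47088, lie within Homer1.

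Nptx2 encodes neuronal pentraxin 2, a secreted protein that gathers AMPA receptors on inhibitory interneurons. Its log2 CPM was 6.35, 5.71 and 6.19 after saline and 5.72, 6.20 and 6.47 after methamphetamine. Each treatment had 1 pool near 5.7 and the others above 6, and both low pools belonged to set B. The difference was 0.050 log2 CPM, with a 95% interval of -0.49 to 0.59, and it had opposite signs within the sets, -0.067 in set A and 0.39 in set B.

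Among the transcription factors, Npas4, a neuron-specific factor that shapes inhibitory synapses, differed by 0.092 log2 CPM (95% interval -0.43 to 0.62). Its libraries held 4.90, 4.30 and 4.67 after saline and 4.40, 4.95 and 4.80 after methamphetamine, with the lowest pool of each treatment again in set B. Klf4, a zinc-finger factor, differed by 0.090 (95% interval -0.59 to 0.77) on 24 to 52 reads a library. Ier2, a nuclear protein of the immediate-early group, was lower by mean, with a difference of -0.095 log2 CPM (95% interval -0.72 to 0.53) on 27 to 42 reads. Its 3 saline libraries lay within 2.92 to 2.95 log2 CPM, and only methamphetamine 1, at 2.56, was clearly below them.

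Sik1 is a salt-inducible kinase that holds CREB's coactivators in the cytoplasm and so damps the response that induces it. Its log2 CPM ranged from 4.93 to 5.38 after saline and from 4.93 to 5.57 after methamphetamine, a difference of 0.12 with a 95% interval of -0.39 to 0.62. Per1, a repressor of the circadian clock that CREB also induces, had the lowest difference of the 10 at -0.14 log2 CPM (95% interval -0.64 to 0.36). Its levels were 7.99, 7.20 and 7.80 after saline and 7.32, 7.64 and 7.61 after methamphetamine. Every set A library was above every set B library, as for Homer1, and with the set as a covariate the Per1 difference was 0.0022. Gadd45b, a stress-response protein linked to DNA demethylation in neurons, differed by 0.025 (95% interval -0.52 to 0.57).

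**Figure D2:**
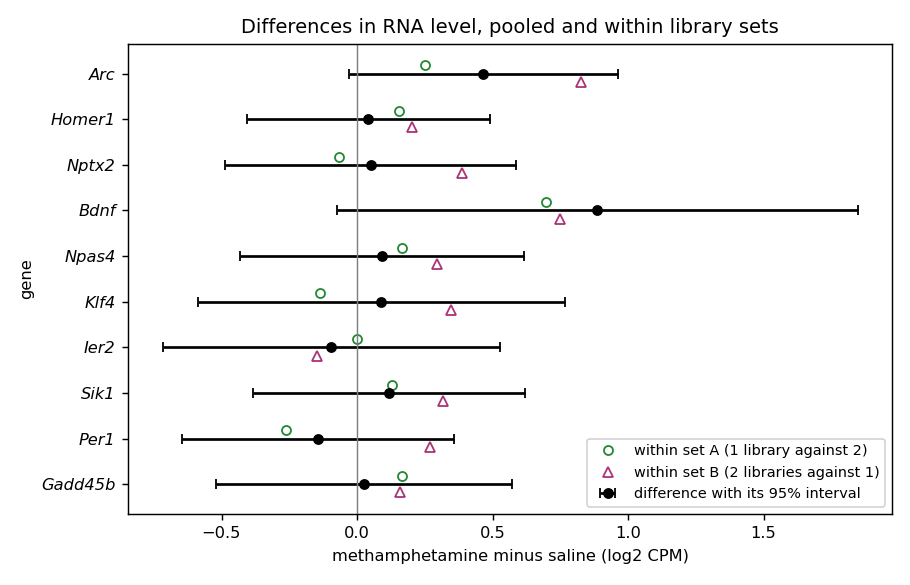
Difference in RNA level (methamphetamine minus saline, log2 CPM, horizontal axis) for each gene, as a filled point with its 95% interval from limma, with open symbols for the difference within set A and within set B. All 10 intervals include 0, and Arc and Bdnf lie farthest to the right. Each open symbol compares 1 library with 2.

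Most of the 10 genes were high or low in the same libraries. Centred on each gene's own mean, their average was -0.30 log2 CPM in saline 2 and -0.17 in methamphetamine 1, and it was 0.25 in methamphetamine 3 and 0.14 in methamphetamine 2. The remaining saline pools lay between, at 0.10 and -0.033. In saline 2 only 1 of 10 genes was above its own mean, against 9 of 10 in methamphetamine 3, and those 2 libraries belong to the same set. Over the 45 pairs of genes the median Pearson r across 6 libraries was 0.56, from -0.53 for Klf4 with Ier2 to 0.97 for Gadd45b with Npas4. These correlations share the 6 libraries, their depth and their 2 sets. No value for pairs of other genes is set beside them, so they do not show a likeness particular to these genes. By set, 9 of 10 genes were higher on average in set A, against 51.6% of all genes, and 2 of 10, Homer1 and Per1, had set A above set B with no overlap, a pattern found in 18.9% of all genes. Within sets the difference was positive for 7 of 10 genes in set A, against 47.8% of all genes, and for 9 of 10 in set B, against 46.8%. Each count compares a single library, the same for all 10 genes, with 2 others: methamphetamine 2 in set A and saline 2 in set B.

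**Figure D3:**
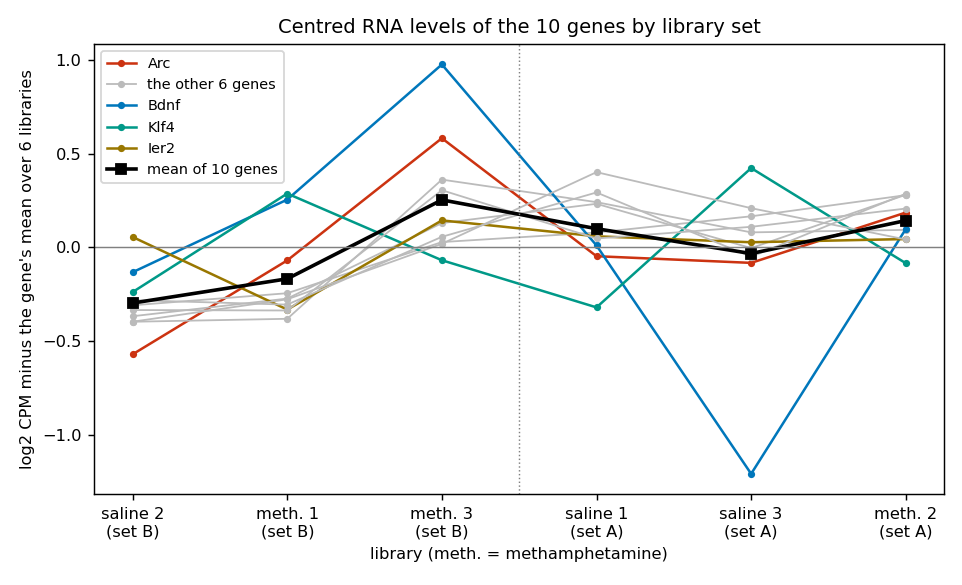
Centred log2 CPM (vertical axis) of the 10 genes in the 6 libraries, set B on the left and set A on the right, with lines joining the points of 1 gene only to make it traceable. The mean of 10 genes runs from -0.30 in saline 2 to 0.25 in methamphetamine 3, while Bdnf has the widest range.

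The genes outside the list whose levels followed this average most closely were N4bp3 (r = 0.989), Noc2l (0.987), Traf4 (0.985), Mrpl28 (0.982) and Kctd15 (0.979). They came first of 10040 genes with a mean above 3 log2 CPM, over 6 libraries.

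Compared per length, as mean CPM per kb of exon over 6 libraries, Arc was highest at 89.4 ± 23.8 (SD, n = 6). Per1 followed at 34.9, Nptx2 at 27.7 and Homer1 at 21.6, and the ranges of neighbours among these 3 overlapped. Gadd45b at 12.4 was separate from its neighbours on both sides. Sik1 at 7.61, Npas4 at 6.25 and Ier2 at 4.90 overlapped each with the next. Klf4 at 2.87 was separate from Ier2 and from Bdnf, which was lowest at 0.96. The median of 17904 genes was 2.57, so that only Bdnf was below the middle of the transcriptome. Lengths are unions of all annotated exons, which makes the values of genes with many alternative ends, such as Homer1 and Bdnf, low.

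Of 28 further activity-induced genes, 20 had a higher mean after methamphetamine, with a median difference of 0.14 log2 CPM, and limma called 0 at an adjusted p under 0.05. The count was 14 of 28 without saline 2 and 12 of 28 without methamphetamine 3. Btg2, an antiproliferative factor, had the highest difference, 1.28 log2 CPM, with 2.38, 2.78 and 2.54 after saline and 3.86, 3.69 and 3.99 after methamphetamine. Fos, a subunit of the AP-1 transcription factor, followed at 0.88, with all 3 methamphetamine libraries above all 3 saline libraries. Both had unadjusted limma p-values under 0.05, as did Dusp1. The lowest were Ier5 at -0.72 and Maff at -0.33, and both separated by library set rather than by treatment. The Btg2 difference was larger than that of any of the 10 genes, and Fos was close to Bdnf, but these comparisons between genes were not tested.

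Of 37 partners and relatives of the 10 genes (receptors, scaffolds, kinases and clock components), 16 were higher and 21 lower by mean, with a median of -0.038 log2 CPM, and limma called 0. Scaled to library totals, 22 of 37 were higher. Nptx1, the sister of Nptx2, had the highest difference at 0.76, and Gadd45a, a relative of Gadd45b, the next at 0.72. Sik2, a kinase close to Sik1, was lowest at -0.39, and Shank3, a scaffold that binds Homer proteins, followed at -0.30. Levels of Sik2 and Shank3 were higher in every set A library than in any set B library.

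The promoters were examined for the letters CREB binds, since CREB is known to switch on genes of this first wave. RefSeq promoter windows on GRCm38.p6, from 250 bases before to 50 after the start, matched 14 promoters of 6 of the 10 genes. These were Bdnf, with several windows, Klf4, Gadd45b, Per1, Homer1 and Npas4, while Arc, Nptx2, Sik1 and Ier2 had none. The full cyclic AMP response element, TGACGTCA, was in 0 of 14, where 1.79% of 32851 promoters hold it. Its core, TGACG on either strand, was in 6 of 14 (42.9%), where 20.8% of all promoters hold it. Homer1 had 3 cores and Npas4 had 2 in a single promoter, and 30 bases that hold both Npas4 cores and 2 of the Homer1 cores are printed with the core in capitals. The Homer1 stretch is chr13:93303694-93303723 on the plus strand and the Npas4 stretch chr19:4990131-4990160 on the minus strand.
Homer1 promoter: cacaagcTGACGtgagcggagggTGACGta
Npas4 promoter: tcccgttcgaCGTCAcgggaTGACGtcgga
These letters are a description of the windows and say nothing of CREB in these pools.

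In the CLIP libraries, hnRNP H reads differed widely among these genes, and no gene or position passed the test between treatments. Of 16918 genes with positions, 89.5% had fewer reads than Homer1, 85.8% than Per1, 66.3% than Arc, 65.2% than Sik1 and 56.6% than Npas4. The shares were 38.3% for Bdnf, 29.3% for Klf4, 28.4% for Nptx2, 3.43% for Gadd45b and 1.34% for Ier2. Summed over positions, 5 of 10 genes had enough reads to be tested (Arc, Npas4, Homer1, Sik1 and Per1). Of 8185 genes tested with edgeR, 0 (0.0%) had an adjusted p under 0.05 and 429 (5.24%) an unadjusted p under 0.05. Arc and Homer1 were among the 429. For single positions edgeR called 0 of 10358 (0.0%), with 347 (3.35%) at an unadjusted p under 0.05, and 0 of the 195 positions of these genes had enough reads to enter that test.

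Arc had 9, 4 and 28 CLIP reads in saline 1 to 3 and 52, 14 and 24 in methamphetamine 1 to 3. Per 1e6 peak reads this was 8.54, 9.45 and 17.1 after saline and 57.2, 14.3 and 40.3 after methamphetamine. Methamphetamine 2 lay within the saline range and the other methamphetamine libraries above it. The edgeR difference was 1.64 ± 0.62 (SE) on the log2 scale, with an unadjusted p of 0.027 and an adjusted p of 0.883. With the library set as a covariate the Arc difference was 1.04. Without methamphetamine 1 it was 1.15 and without methamphetamine 2 it was 2.03.

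Homer1 had the most CLIP reads of the 10 genes, with 47, 40 and 67 in the saline pools against 346, 65 and 62 in the methamphetamine pools. Per 1e6 peak reads, methamphetamine 1 stood at 381 while the other 5 libraries lay between 41.0 and 104. The edgeR difference was 1.62 ± 0.71 (SE), with an unadjusted p of 0.048 and an adjusted p of 0.883, and it was 0.49 without methamphetamine 1. With the set as a covariate it was 0.94. Per1 had 46, 59 and 73 reads in the saline pools against 183, 60 and 33 in the methamphetamine pools. Its difference was 0.48 ± 0.69 (SE) with an edgeR adjusted p of 0.919, and without methamphetamine 1 it was -0.41.

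Npas4 had 14, 12 and 20 reads in the saline pools against 15, 19 and 0 in the methamphetamine pools. The 0 in methamphetamine 3, the library with 595372 peak reads, allows up to 5.04 reads per 1e6 at 3 counts. Its edgeR difference was -0.49 ± 0.88 (SE), and 0.012 without methamphetamine 3. Sik1 had 14, 8 and 42 reads in the saline pools against 10, 27 and 23 in the methamphetamine pools, with a difference of 0.38 ± 0.56 (SE). Neither gene separated the treatments.

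**Figure D4:**
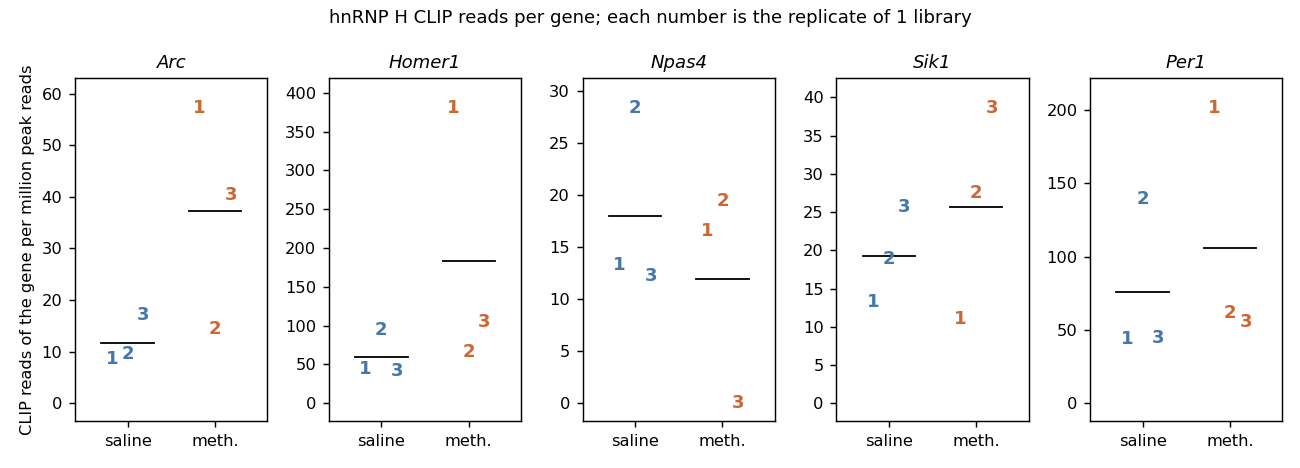
CLIP reads per gene per 1e6 peak reads (vertical axis, a separate scale for each gene) for the 5 genes tested, each number being the replicate of 1 library and each bar a group mean. Methamphetamine 1 is the highest library for Arc, Homer1 and Per1.

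Reads of the remaining 5 genes were too few to test. Bdnf had 34 reads in all, 22 of them in methamphetamine 1 and 0 in methamphetamine 3. Klf4 had 22, Nptx2 had 21, Gadd45b had 3 and Ier2 had 1. Methamphetamine 1 held 43.2% of the CLIP reads of the 10 genes but 16.2% of all peak reads. By reads not scaled to depth, it was the highest library at 94 of the 188 positions with reads (50.0%). Over the whole table it was highest at 31.8% of 140449 positions with reads. At Homer1 this was 69 of 118 positions. The part of that library's own properties in the CLIP differences of Arc, Homer1 and Per1 was not tested beyond leaving it out.

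Set against RNA abundance, the 10 genes carried different amounts of CLIP signal. The lowest ratios of CLIP CPM to RNA CPM were 0.030 in Gadd45b and 0.038 in Ier2, on 3 reads and 1 read, followed by 0.054 in Nptx2 and 0.090 in Arc. Of 13198 genes, 11.8% had a lower ratio than Arc. Npas4, Sik1, Homer1, Per1 and Klf4 lay between 0.44 and 0.58, near the median of all genes, 0.62. Bdnf was at 1.23 on 34 reads. The ratio depends on which positions the authors' table covers and on intron length, since most CLIP reads of Homer1 and Sik1 were intronic and RNA-seq reads are mostly exonic.

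Each position was placed by its midpoint, and as UTR before coding exon where transcripts differed. By place in the gene, 127 of the 195 positions (65.1%) were intronic and held 56.2% of the reads, and 53 were in 3′ UTRs with 23.2% of the reads. Genes differed in this. Arc reads were mostly in its 3′ UTR (64.9%), as were those of Npas4 (71.2%). Sik1 reads were 81.5% intronic and those of Homer1 72.2%. Coding exons held 50.4% of the Per1 reads, at 6 positions, and 50.0% of the 34 Bdnf reads, at 1 position. Of the 229 coding reads of Per1, 103 were at its most-read position. The Per1 position in the saline list alone, with 41 reads, counts as intronic by its midpoint, though 44 of its bases are coding.

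Homer1 has alternative ends that differ in their 3′ UTR, and positions fell in each. A short transcript ends in a 4352-base 3′ UTR at chr13:93356111-93360462, inside an intron of the long transcripts, an arrangement known for the activity-induced short form. That stretch held 20 positions with 7, 9 and 4 reads in saline 1 to 3 and 56, 10 and 12 in methamphetamine 1 to 3. The 2903-base 3′ UTR of a long transcript, chr13:93402227-93405129, held 13 positions with 2, 0 and 12 reads in the saline pools against 24, 15 and 2 in the methamphetamine pools. In both stretches methamphetamine 1 was highest, and outside it the treatments overlapped or differed by a few reads. Reads in the first stretch can come from the short transcript or from unspliced long transcripts, which cannot be told apart here. Of all 123 Homer1 positions, the one with the most reads was intronic, chr13:93317936-93318035, with 2, 0 and 2 reads in the saline pools against 26, 0 and 0 in the methamphetamine pools.

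**Figure D5:**
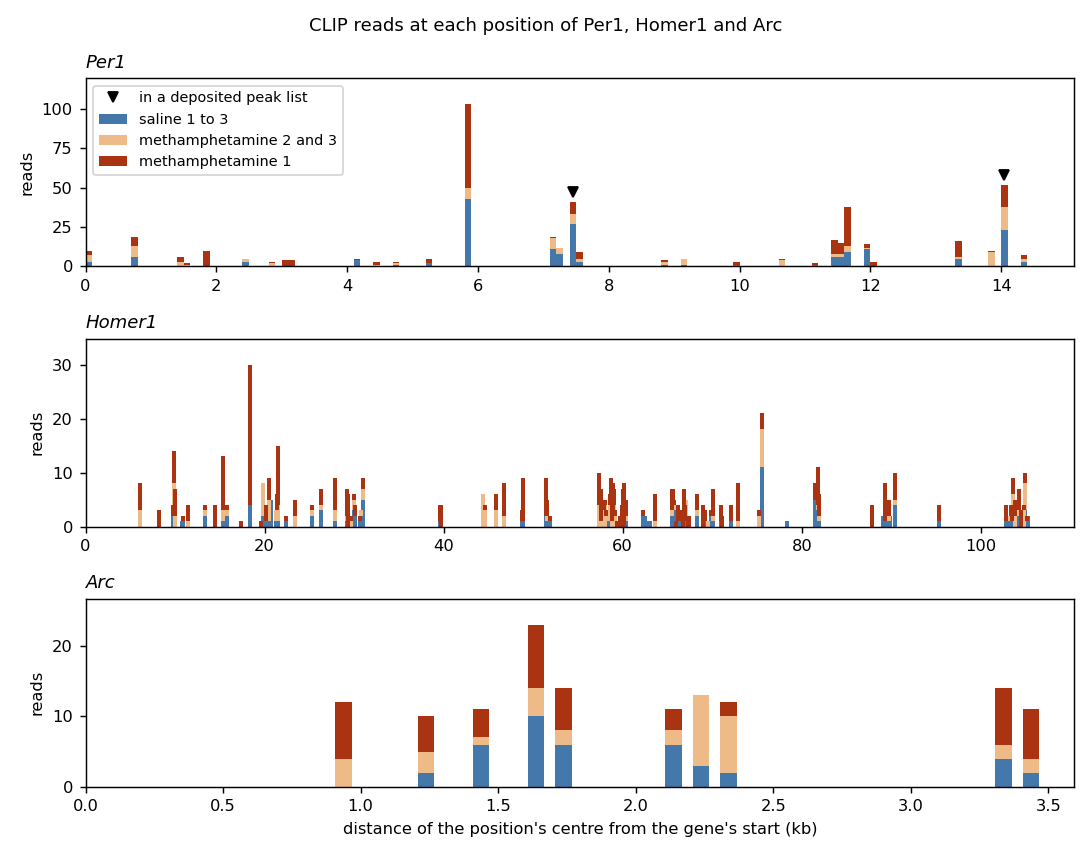
CLIP reads (vertical axis) at each position along Per1, Homer1 and Arc against distance from the gene's start (kb), stacked by saline libraries, methamphetamine 2 and 3, and methamphetamine 1, with triangles at positions in a deposited peak list. Per1 reads concentrate at a few positions, while those of Homer1 are spread over 123.

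The deposited peak lists, one per treatment each made from all replicates of its treatment, held 9903 positions for methamphetamine and 9537 for saline. They named 4 positions in 3 of the 10 genes, of which 2 were in both lists, 2 in the saline list alone and 0 in the methamphetamine list alone. The Npas4 3′ UTR position at chr19:4984856-4984955 had a signal value of 2.36 for methamphetamine and 2.45 for saline in the authors' deposited table and stood above 83.2% and 82.0% of positions in those lists. Its reads were 7, 7 and 13 after saline and 13, 10 and 0 after methamphetamine. The Per1 coding position whose sequence is printed above had signal values of 1.43 and 1.63 in the authors' deposited table. It had 4, 2 and 17 reads in the saline pools against 14, 14 and 1 in the methamphetamine pools, so the pools of 1 treatment differed from each other more than the treatments did.

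The positions in the saline list alone were a Per1 position at chr11:69102618-69102717 and a Klf4 intron position at chr4:55531344-55531443. At the Per1 position saline pools had 7, 0 and 20 reads and methamphetamine pools 8, 6 and 0. At the Klf4 position they were 1, 1 and 8 against 0, 0 and 3. Both saline signals rest mainly on saline 3, the deepest library, and both positions had reads in at least 1 methamphetamine library. Absence from a list is not a test of a difference. The most-read Per1 position, in neither list, had 4, 35 and 4 reads in the saline pools against 53, 3 and 4 in the methamphetamine pools, so that most of its 103 reads came from 2 libraries.

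Runs of guanine, the letters hnRNP H is known to bind, were counted in the positions. Sequence was available for 64 of the 195 positions, those lying wholly within an exon. Of these, 38 (59.4%) held GGG, against 70.9% of 24074 such positions in the whole table. Homer1 accounted for most positions without a run, with GGG in 15 of 38 (39.5%). In the 3′ UTR of its short transcript it was 5 of 20 positions, and in that of the long transcript 8 of 13. Per1 held GGG at 7 of 8 positions wholly within an exon, Arc at 6 of 8 and Npas4 at 4 of 4. The most-read Per1 position and the one in the saline list alone cross an exon edge and were not counted. The coding part of each holds 0 runs. Positions of a gene share its base composition and are not independent, and no test was made.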

How the data were processed

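The authors deposited RNA-seq values as log2 CPM (voom, as the labels say), counts of CLIP reads per peak position, and a peak list per treatment with a signal score, p-value and q-value per peak, per the file headers. The submitters' processing notes name Trimmomatic, UMI-tools, STAR, bedtools, Subread, featureCounts, limma, edgeR and build mm10, with no versions or roles, and strand handling in counting is not given in the sources used here. The deposited log2 values inverted to whole reads (within 0.05) for 100% of values in each library. Peak reads of each position were counted once, also where several lines of the table repeat it, and 0 value columns lacked a sample.

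RNA-seq was tested on all 18208 genes with limma 3.58.1, using eBayes moderation along a mean-variance trend. For CLIP gene sums and positions the quasi-likelihood test of edgeR 4.0.16 was used after TMM scaling and filterByExpr, in R 4.3.3. All p-values are 2-sided, with Benjamini-Hochberg adjustment at 0.05, and measure the spread between pools of mice. Alternatives included DESeq2 1.42.0, other scalings and filters, leaving out each library, and the 2 library sets as a covariate. The sets were drawn from the RNA values that were tested, so RNA p-values with this covariate can be too small. CLIP libraries took the set of the RNA library from the same pool. The fits were also run on simulated data with known changes. Those data held no library sets, so that run does not show how the fits behave on these libraries. Wilson intervals (95%) cover counting error only and leave out the spread between pools. They take reads as independent, and are too narrow where reads are not independent molecules. The limit for 0 reads is 3 counts.

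The genes, the lists of further activity-induced genes, partners and cell markers, and the tests were chosen with earlier results of these data known. Named are the 10 genes, the most-read and listed positions of each, the 5 genes most like their mean, and the 2 lowest and 2 highest genes of each list. Dusp1 and the positions outside this rule were named after their values were seen.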

Additional observations from a re-analysis of the deposited data

How the results depend on the processing

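Of 210 recomputed differences of single genes (10 in RNA, 5 in CLIP), 190 kept their sign and 20 changed it, and none reached an adjusted p under 0.05. Called genes stayed at 0 in all alternatives for RNA and for CLIP gene sums. Genes at an unadjusted p under 0.05, 276 in RNA, were 103 with DESeq2, 109 with edgeR, 518 without a trend, 541 with the library set, 928 without saline 2 and 958 without methamphetamine 2. In CLIP gene sums, against 429, they were 622 with DESeq2, 993 with no filter, 222 without methamphetamine 1, 255 without methamphetamine 3, 680 without saline 2 and 922 without methamphetamine 2. For CLIP positions, against 347, they were 1937 with DESeq2, 6792 with no filter, 945 without saline 2 and 1093 without methamphetamine 2. For CLIP positions DESeq2 called 1 and the fit with no filter on low counts called 414 of 140449, 0 of them in these genes. Leaving out 1 library gave 0 calls throughout. With all libraries kept, the changes of sign in RNA were Per1 at 0.0022 with the library set as a covariate and Gadd45b at -0.037 with quantile normalization. The others came with 1 library left out and reached -0.14 for Nptx2, against 0.050 in the main fit. With 1 library left out, RNA differences ran from -0.069 to 0.25 for Npas4, -0.10 to 0.17 for Homer1, -0.14 to 0.25 for Nptx2, -0.020 to 0.31 for Sik1, -0.38 to 0.022 for Per1, -0.19 to 0.047 for Ier2, -0.11 to 0.18 for Gadd45b and -0.048 to 0.32 for Klf4. They ran from 0.29 to 0.62 for Arc and 0.50 to 1.11 for Bdnf. In CLIP they ran from -0.96 to 0.012 for Npas4, -0.041 to 0.74 for Sik1 and -0.41 to 1.25 for Per1. The causes of these shifts were not tested. With over 3 reads required in all 3 libraries of a treatment, 1 of the 4 listed positions remained. With GGGG in place of GGG the share of positions was 31.2%, against 36.5% of all exonic positions.

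Same-numbered pools did not deviate together: across 7853 genes their correlations were -0.35, -0.82 and -0.49 in RNA and, across 11107 features, -0.33, -0.53 and -0.070 in CLIP. With the replicate number as a block, calls were 0 for RNA, CLIP genes and CLIP positions, and genes at an unadjusted p under 0.05 were 144 in RNA.

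Low counts limit the precision: Bdnf, Ier2 and Klf4 had at most 55 RNA reads a library, and only 44 of the 195 CLIP positions had 10 or more reads in all.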
